A study of Mus musculus with 6 samples.

Results

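The strongest distal regions were the open-chromatin regions of the deposited table that carried no assigned gene and whose normalised signal averaged at least 300 over the 3 GFP guide libraries. They numbered 1936 of 63430 regions, or 4.62% of the 41864 regions without a gene. The cells were NIH/3T3, a fibroblast line from mouse embryos, and all 6 libraries came from cells with a Cas13d knock-in, an enzyme that cuts RNA at the place its guide names. In 3 libraries the cells had been transfected with a guide RNA that targets Actg1 mRNA, which codes for cytoplasmic gamma-actin, and in the other 3, the controls, with a guide against GFP. The study asked what mRNA decay contributes to transcriptional adaptation, the higher transcription of related genes that can follow the decay of an mRNA. Each library was made from 25000 cells, and the labels call the replicates biological but name no clone, culture or harvest that would tell them apart. P-values therefore measure the spread between these samples, which may be technical.

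Accessibility was read by ATAC-seq, in which the transposase Tn5 inserts sequencing adapters into DNA that nucleosomes do not cover. Open DNA away from promoters commonly marks enhancers, the sites where transcription factors bind and act on a promoter at a distance, and in fibroblasts such sites often carry binding sequences of AP-1, TEAD and RUNX factors. A second class of open sites without a gene name consists of internal and alternative promoters, which an annotation of outer gene ends leaves unnamed. In a bulk library a lower signal in a region may come from fewer cells with the region open or from less open DNA per cell, and these cannot be told apart.

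The signal, as far as the values show, is a read count that the authors had scaled between libraries and rounded. Totals over all regions were close to each other, at 7673745 to 7689108 with the Actg1 guide and 7732413 to 7831438 with the GFP guide, and the estimated reads in regions were 5675889 to 9526290 with the Actg1 guide and 6785556 to 9472456 with the GFP guide. GFP guide replicates 1 and 2 lay within sampling noise of each other (chi-square of 0.987 per region, p = 0.978) and were counted as 1 sample. Every test thus compares 3 Actg1 guide samples with 2 GFP guide samples. In each fold change GFP guide replicate 3 weighs as much as replicates 1 and 2 together. The fit takes the mean of replicates 1 and 2 to vary like a single library. Other pairs of replicates of a guide lay little above sampling noise, at a chi-square of 1.04 to 1.12 per region. The spread that the p-values measure is therefore close to counting error. Promoter regions were present for 11 of 16 fibroblast markers, with a summed signal of 3667 to 3792 in the Actg1 guide libraries and 4055 to 4151 in the GFP guide libraries. Among these, Col1a1, Col1a2, Col3a1, Fn1 and Vim had a region, and Dcn, Lum, Pdgfra, Postn and Thy1 had none. Of the markers of other cells, 2 of 6 epithelial genes (Krt14 and Krt8) and 1 of 4 neural genes (Tubb3) had a promoter region, and 0 of 6 blood genes and 0 of 4 endothelial genes did.

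The sequence table of RefSeq promoters showed that some of these regions hold a start site all the same, and the upstream DNA of 5 of them is given here because it is the only sequence at hand within the regions. They were picked after their values were seen, among the 172 regions that hold the whole 250 bases before a RefSeq start: the protein-coding one with the most signal, and the largest fall and the largest rise of a protein-coding gene and of a lncRNA gene. Each is from RefSeq, build GRCm38.p6, runs 5′ to 3′ along the strand of its gene and ends at the base before the start. Capitals mark matches on either strand to TGANTCA, the AP-1 site. They also mark TGACGTCA, the CRE. They mark GGAATG, the TEAD site, and the CCAAT box. They mark GGGCGG, the GC box, and the CArG box by its name. Motifs were searched one by one and may overlap. Ptprs encodes the receptor tyrosine phosphatase sigma (chr17:56462222-56462471, minus strand), Clip4 a CAP-Gly linker protein (chr17:71781049-71781298, plus strand) and Synj2 the phosphoinositide phosphatase synaptojanin 2 (chr17:5975330-5975579, plus strand). Gm35551 (chr17:84044587-84044836, minus strand) and Gm33741 (chr6:100510030-100510279, minus strand) are lncRNA genes.
Ptprs: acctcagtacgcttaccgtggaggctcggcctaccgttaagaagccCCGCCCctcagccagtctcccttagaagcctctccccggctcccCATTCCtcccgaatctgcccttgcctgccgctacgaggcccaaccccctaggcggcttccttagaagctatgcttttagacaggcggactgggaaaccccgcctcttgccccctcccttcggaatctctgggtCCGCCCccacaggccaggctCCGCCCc
Clip4: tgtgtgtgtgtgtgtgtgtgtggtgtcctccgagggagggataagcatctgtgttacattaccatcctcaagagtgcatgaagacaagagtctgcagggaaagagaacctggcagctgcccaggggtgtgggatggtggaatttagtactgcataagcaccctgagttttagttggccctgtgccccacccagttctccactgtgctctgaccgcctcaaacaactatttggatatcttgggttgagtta
Gm35551: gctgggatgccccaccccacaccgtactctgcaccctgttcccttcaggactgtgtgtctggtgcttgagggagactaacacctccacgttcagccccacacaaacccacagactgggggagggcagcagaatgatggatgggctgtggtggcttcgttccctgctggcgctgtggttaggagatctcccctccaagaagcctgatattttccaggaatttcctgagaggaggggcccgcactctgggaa
Gm33741: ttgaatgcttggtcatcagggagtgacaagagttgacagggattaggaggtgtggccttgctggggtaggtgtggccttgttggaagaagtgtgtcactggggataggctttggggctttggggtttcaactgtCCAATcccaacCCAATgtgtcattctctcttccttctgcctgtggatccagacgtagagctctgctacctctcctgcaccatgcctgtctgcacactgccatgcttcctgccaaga
Synj2: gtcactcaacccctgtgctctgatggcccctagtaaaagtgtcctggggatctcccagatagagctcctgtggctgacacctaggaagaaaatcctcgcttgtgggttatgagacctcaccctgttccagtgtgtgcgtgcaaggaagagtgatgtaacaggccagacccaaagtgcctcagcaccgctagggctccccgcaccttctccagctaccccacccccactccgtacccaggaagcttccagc

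The Ptprs sequence held 3 GC boxes and 1 TEAD match, and the Gm33741 sequence held 2 CCAAT boxes. The Clip4, Gm35551 and Synj2 sequences held none of the 6 motifs. Over the 233 start sites that lay within 1 kb of the centre of a strong distal region, 59.7% had a GC box in these 250 bases, against 32.7% of all 32851 RefSeq promoters in the table. AP-1 letters occurred in 9.44% of the 233 and 6.75% of all promoters, CCAAT in 33.0% and 33.8%, and TEAD letters in 11.2% and 12.6%. The CRE occurred in 0.429% and 1.55%, and the CArG box, the letters bound by the serum response factor, in 0.858% and 1.47%. The 233 were taken at strongly open regions, while the 32851 were not chosen by openness, so the sets are unlike. Open gene-assigned promoters were not set beside the 233. A match is a description of letters and not a bound site.

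The GFP guide signal chose the regions, so its level is a description. It ran from the threshold of 300 to 3252, with a median of 393, and 1014 regions lay under 400, 226 at 600 or more and 23 at 1000 or more. The same regions had Actg1 guide means of 97.7 to 2571, with a median of 374. They were 806 bp wide in the median, against 297 bp for the weaker distal regions, and held 523 signal units per kb of length in the GFP guide libraries, against 126. Replicates lay close together, with a median coefficient of variation of 4.72% among Actg1 guide libraries and 4.39% among GFP guide libraries. The 1936 regions took 10.4% to 10.5% of the signal in the Actg1 guide libraries and 10.9% to 11.2% in the GFP guide libraries. Choosing by the GFP guide signal favours this gap.

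Regions on either side of the threshold differed little in the GFP guide mean that sets it. Just inside lay a region over a start site of Kdm2b, a histone demethylase gene, with 362, 345 and 350 in the Actg1 guide libraries and 324, 301 and 275 in the GFP guide libraries. Just outside lay a region over a start site of Phldb2, with 273, 233 and 294 in the Actg1 guide libraries and 303, 289 and 307 in the GFP guide libraries. Every one of the 1936 passed the filter on low values.

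Where the regions lay was read from the RefSeq gene table and from the table of RefSeq start sites, which held no entry for chromosome 18, so 75 regions there were left out of the start-site counts. Of the other 1861, 233 (12.5%) had a RefSeq start within 1 kb of the centre, 827 (44.4%) lay inside a protein-coding gene without such a start, 166 (8.92%) lay inside another gene and 635 (34.1%) lay outside genes. The 38512 weaker distal regions on the same chromosomes had a start within 1 kb in 2.34%, lay inside protein-coding genes in 48.2% and inside other genes in 7.96%, and lay outside genes in 41.5%. The difference between these shares was not tested. The phrase "away from any TSS" thus does not describe the 233 regions with a start nearby, of which 182 concerned a protein-coding gene and 51 a lncRNA.

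**Figure D1:**
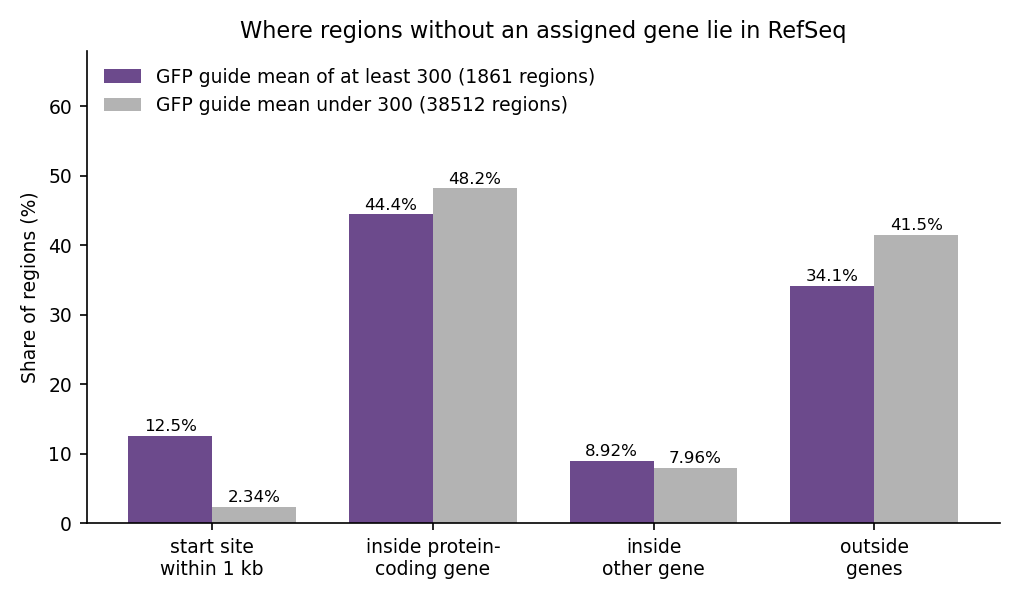
Share of regions without an assigned gene (vertical axis, %) in 4 location classes read from RefSeq, for the 1861 strong distal regions on chromosomes with start sites (left bar of each pair) and the 38512 weaker ones (right bar). A start site within 1 kb was found for 12.5% of the strong regions and 2.34% of the weaker ones.

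Many of these start sites were internal. In 141 of the 233 the start lay over 1 kb from both ends of its gene, and the deposited table had assigned its regions by 1 gene end each, at most 5988 bp away. Another region of the table was assigned to the same gene in 103 of the 233 cases. Lmna, the gene of the nuclear lamins A and C, had 2 such regions. At chr3:88492426-88493324, 437 bp from a start, the Actg1 guide libraries had 989, 941 and 982 and the GFP guide libraries 963, 964 and 1016. At chr3:88502995-88504060, 175 bp from a start, they had 674, 700 and 771 with the Actg1 guide and 662, 724 and 727 with the GFP guide. The 2 groups overlapped in both, and neither was called. Of the 1005 miRNA hairpins in RefSeq, 0 overlapped a strong distal region.

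Distance to genes varied widely. A protein-coding gene body lay within 10 kb of 1260 regions, and over 100 kb away from 157. For those outside protein-coding genes the median distance was 26.9 kb, against 34.1 kb for the weaker distal regions. The region farthest from any gene, chr15:50172235-50172683, lay 258 kb from the pseudogene Gm49186 and 482 kb from Trps1, a GATA-type repressor gene, and had 343, 347 and 336 in the Actg1 guide libraries and 310, 320 and 327 in the GFP guide libraries. Its groups did not overlap, and the difference was not called (log2 fold change 0.09, limma adjusted p = 0.337). By chromosome, the strong regions made up 9.15% of the distal regions of chromosome 17 (168 regions), 6.41% of those of chromosome 16 and 5.99% of those of chromosome 8, and 2.48% of those of the X chromosome (31 regions), which was the lowest share.

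The 10 regions with the most GFP guide signal lay at or near Gm39701, Gm20783, Ptprs, Kat6b, Dlgap1, Spaca6, Clec16a, Dlc1, Gm39286 and Ltbp1. Of these, 3 were called, all lower, where 55.9% of the 1936 and 41.3% of all tested regions were called. Ranking by the GFP guide signal favours lower calls. The region over a RefSeq start of Ptprs (chr17:56461861-56463312) had 1962, 1998 and 1915 in the Actg1 guide libraries and 1965, 1996 and 1997 in the GFP guide libraries, and was not called (log2 fold change -0.02, SE 0.034, limma adjusted p = 0.633). The highest region in Dlgap1, which encodes a scaffold protein of synapses (chr17:70737490-70738940), had 1393, 1422 and 1387 in the Actg1 guide libraries and 1327, 1306 and 1462 in the GFP guide libraries. In both the groups overlapped. The region in Kat6b, a histone acetyltransferase gene (chr14:21500119-21501427), had 1469, 1382 and 1413 with the Actg1 guide and 1511, 1596 and 1612 with the GFP guide. Its groups did not overlap, and it was called lower (log2 fold change -0.16, limma adjusted p = 0.00132). Without GFP guide replicate 3 the log2 fold change was -0.13. That fit leaves 1 GFP guide sample, so its effect sizes are given here without calls.

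A region 27.4 kb from the lncRNA gene Gm39286 and 48.3 kb from Irf2bp2, a transcriptional corepressor gene, had 985, 1017 and 1039 in the Actg1 guide libraries and 1166, 1210 and 1198 in the GFP guide libraries (chr8:126539334-126540607). It lay lower in every Actg1 guide library than in any GFP guide library (log2 fold change -0.24, SE 0.044, limma adjusted p = 3.17e-05). The widest region, 3000 bp in Nr3c1, the gene of the glucocorticoid receptor, had 1208, 1136 and 1140 in the Actg1 guide libraries and 1178, 1130 and 1156 in the GFP guide libraries, with overlapping groups (chr18:39488931-39491930).

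At 2 places the highest GFP guide signal came from 1 library. The strongest region of all, chr1:170943157-170944751 beside Gm39701, had 2566, 2478 and 2509 in the Actg1 guide libraries and 2904, 2975 and 3877 in the GFP guide libraries. It was called lower (log2 fold change -0.42, limma adjusted p = 2.43e-09), and the log2 fold change became -0.22 without GFP guide replicate 3. On chromosome 8 a region of 477 bp near Def8 (chr8:123432925-123433401) had 885, 799 and 855 with the Actg1 guide and 948, 951 and 1202 with the GFP guide. It was called lower (log2 fold change -0.34), and the log2 fold change became -0.17 without that replicate. At all 7 strong distal regions of these 2 places, GFP guide replicate 3 stood 1.21 to 1.33 times above the mean of replicates 1 and 2. Over all 1936 regions this ratio was 1.02 in the median, and 17 reached 1.2, among them these 7, which were looked at after their values had been seen. These places hold 4 of the 5 regions with the most signal per kb, and the part of GFP guide replicate 3 in their lower values was not tested beyond leaving it out.

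Across all 1936, the Actg1 guide libraries lay slightly below the GFP guide libraries. By limma, 280 regions were called higher and 802 lower, or 55.9%, where 41.3% of all 61327 tested regions were called, 20.6% higher and 20.7% lower. The median log2 fold change was -0.11, and it was -0.12, -0.12 and -0.10 for Actg1 guide replicates 1, 2 and 3 taken singly. The groups did not overlap in 1238 regions (63.9%), against 50.8% of all tested regions. The GFP guide values both chose these regions and form the denominator of the fold, so the lean towards lower calls is no evidence of a direction. Without GFP guide replicate 3, which leaves 1 GFP guide sample, the median was -0.10. Fewer calls follow from the construction of that fit, so its calls are not set beside these.

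**Figure D2:**
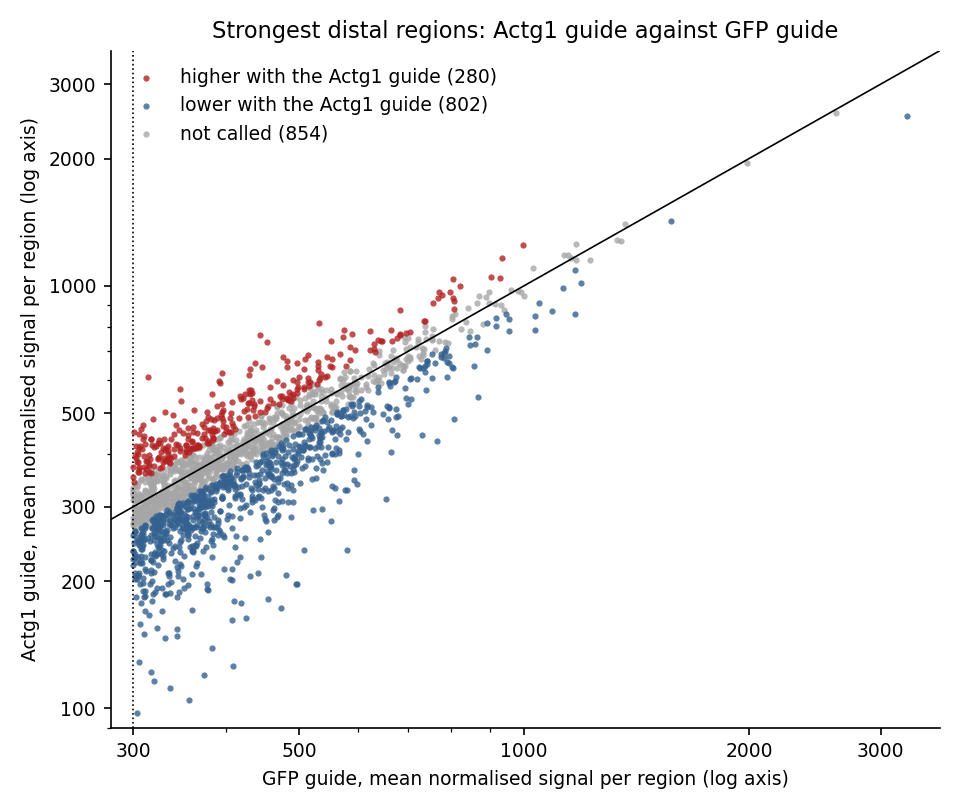
Mean signal of each of the 1936 regions in the Actg1 guide libraries (vertical log axis) against the GFP guide libraries (horizontal log axis). The solid line marks equal values and the dotted line the level of 300 that chose the regions. Of the called points, 802 lie below the line and 280 above it.

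The split of the calls followed the values used for choosing. Distal regions with a mean of at least 300 over all 6 libraries numbered 1840, of which 387 were higher and 619 lower, with a median log2 fold change of -0.06. Distal regions with an Actg1 guide mean of at least 300 numbered 1785, of which 517 were higher and 444 lower, with a median of -0.0036. The 2 choices by 1 guide shared 1501 regions, or 84.1% of the Actg1 guide choice and 77.5% of the GFP guide choice. The share called moved little, at 53.8% by the Actg1 guide choice and 54.7% by the mean of all 6 libraries.

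**Figure D3:**
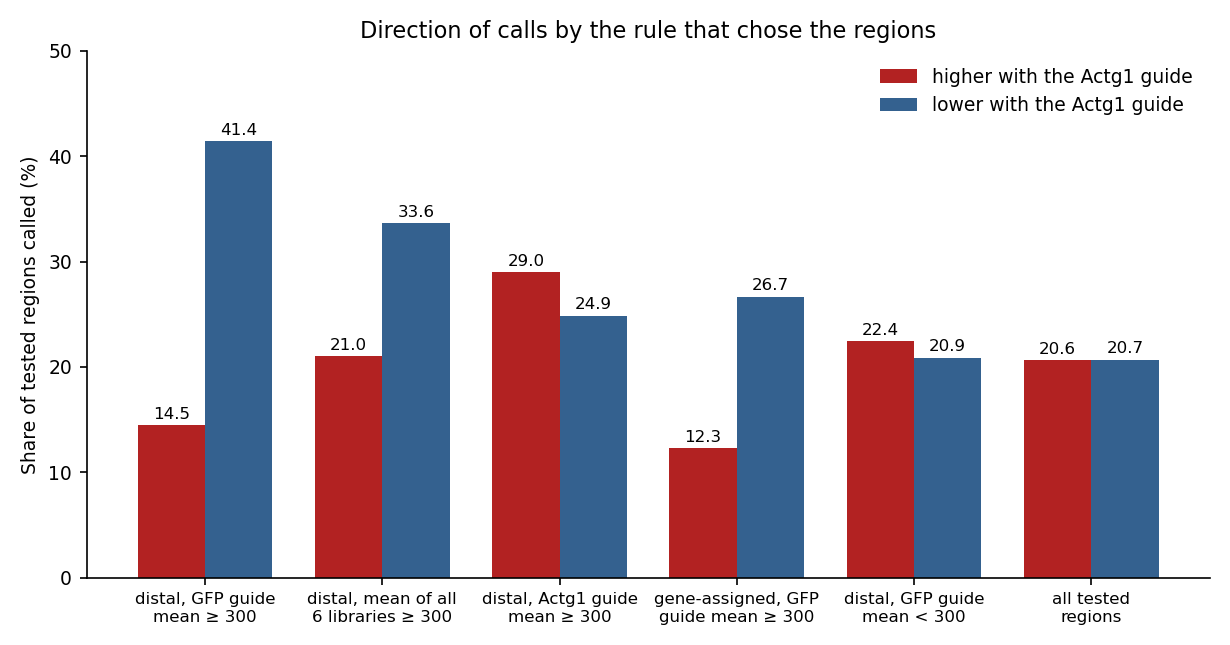
Share of tested regions called higher and lower with the Actg1 guide (vertical axis, %) for distal regions chosen by 3 rules, for gene-assigned regions of like signal, for weaker distal regions and for all tested regions. When the Actg1 guide mean chooses the distal regions 29.0% are called higher and 24.9% lower, and when the GFP guide mean does 14.5% are called higher and 41.4% lower.

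Changes were mostly small. Called regions had a median log2 fold change of 0.27 where higher and -0.34 where lower. Called changes of at least 2-fold numbered 0 higher and 32 lower, where 6.13% of all tested regions rose and 6.03% fell by that much. Chosen by the Actg1 guide mean, the distal regions held 13 higher and 1 lower by that measure, and chosen by the mean of all 6 libraries 2 and 12. The 5492 gene-assigned regions with a GFP guide mean of at least 300 were called in 38.9% (675 higher and 1464 lower, median log2 fold change -0.05), and the 38211 tested weaker distal regions in 43.3% (8577 higher and 7975 lower, median 0.01). Within the strong distal regions the share called varied little with signal, from 51.3% at 300 to 350, through 58.9%, 57.4% and 57.9%, to 55.8% at 700 or more.

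By location, 27 of the 233 regions with a start site nearby were higher and 69 lower (41.2% called, where 41.3% of all tested regions were, median log2 fold change -0.07). Inside protein-coding genes 99 of 827 were higher and 376 lower (57.4%, median -0.14). Inside other genes 25 of 166 were higher and 75 lower (60.2%, median -0.13). Outside genes 122 of 635 were higher and 246 lower (58.0%, median -0.09). On chromosome 18, 7 of 75 were higher and 36 lower. Leaving out GFP guide replicate 3 leaves 1 GFP guide sample, so only effect sizes are given. The medians were then -0.07 near start sites, -0.12 inside protein-coding genes and -0.12 inside other genes. They were -0.08 outside genes and -0.14 on chromosome 18.

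The largest rise lay 15.4 kb from Ltbp1, which encodes a protein that holds latent TGF-beta in the matrix (chr17:75407281-75408454). It had 616, 631 and 578 in the Actg1 guide libraries and 298, 322 and 323 in the GFP guide libraries, which is 0.94 on the log2 scale (SE 0.064, limma adjusted p = 2.93e-15). A region 10957 bp from Lncpint, a lncRNA that p53 induces (chr6:31081972-31083240), had 752, 761 and 782 with the Actg1 guide and 426, 490 and 416 with the GFP guide (log2 fold change 0.81, limma adjusted p = 1.05e-14). The next were near the lncRNA genes Gm33696, Mirt1 and Malat1. In all 10 of the largest rises every Actg1 guide library stood above every GFP guide library. Picking by size among called regions favours this, and 50.8% of all tested regions had groups without overlap.

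Of the protein-coding genes among the largest rises, Trio, the gene of a guanine nucleotide exchange factor, held a region with 535, 541 and 530 in the Actg1 guide libraries and 340, 365 and 337 in the GFP guide libraries (chr15:27923671-27924319). Ddc, the gene of aromatic amino acid decarboxylase, held one with 467, 457 and 485 with the Actg1 guide and 304, 311 and 314 with the GFP guide (chr11:11820333-11821168). The region over a start site of the lncRNA gene Gm33741, whose upstream sequence is printed above, had 630, 596 and 643 in the Actg1 guide libraries and 367, 394 and 423 in the GFP guide libraries (log2 fold change 0.63, limma adjusted p = 7.04e-11). The log2 fold changes of the 10 ran from 0.59 to 0.94.

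The 10 largest falls lay between -1.36 and -1.78 on the log2 scale. The GFP guide signal that chose the regions is the denominator of these folds, and over the distal regions chosen by the Actg1 guide mean, log2 fold changes ran from -1.08 to 1.74. The region in the lncRNA gene Gm35620, 32.8 kb from Alox5ap, the gene of the protein that activates 5-lipoxygenase (chr5:149320533-149321331), had 108, 111 and 96 in the Actg1 guide libraries and 367, 319 and 382 in the GFP guide libraries (log2 fold change -1.78, SE 0.102, limma adjusted p = 3.18e-17). A region in Tfap4, the gene of a helix-loop-helix transcription factor (chr16:4552780-4553455), had 109, 131 and 139 with the Actg1 guide and 408, 389 and 426 with the GFP guide (log2 fold change -1.71, limma adjusted p = 3.51e-17). All 10 of the largest falls were without overlap between the groups, which picking by size among called regions favours.

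Of the other large falls, a region in the lncRNA gene Gm36911, 75.6 kb from Pmepa1, a TGF-beta induced inhibitor of that pathway (chr2:173351904-173352772), had 114, 118 and 129 in the Actg1 guide libraries and 374, 370 and 377 in the GFP guide libraries. A region between genes, 76.6 kb from the lncRNA gene Gm39940 and 104 kb from Bmp2, which encodes a bone morphogenetic protein (chr2:133666160-133667041), had 98, 93 and 102 with the Actg1 guide and 305, 312 and 293 with the GFP guide. A region in Ets1, a transcription factor gene (chr9:32720241-32721272), had 132, 157 and 129 with the Actg1 guide and 390, 389 and 367 with the GFP guide. The other 5 were in or near Rassf3, Slc6a6 (the taurine transporter), Gm35333, Coro7 and Rmi2.

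**Figure D4:**
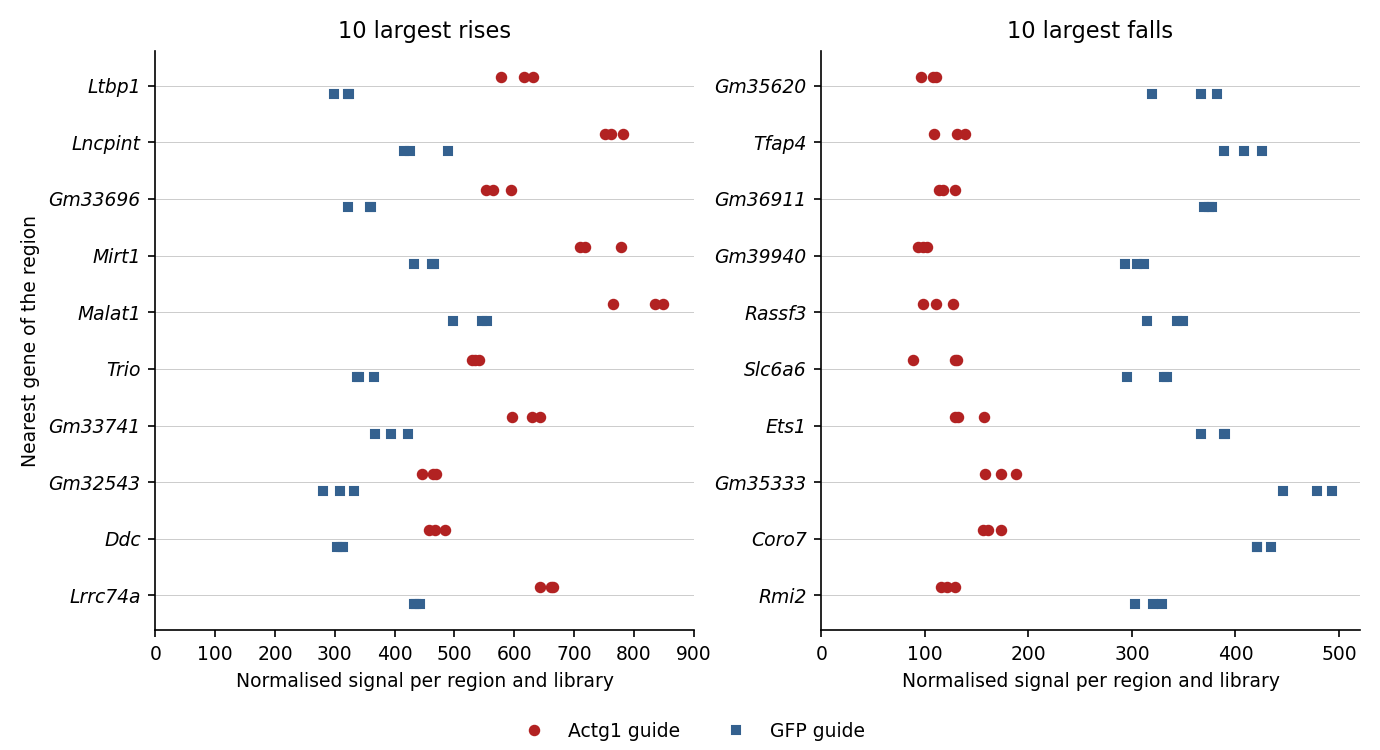
Normalised signal per library (horizontal axes) of the regions with the 10 largest rises (left) and 10 largest falls (right) among called regions, each named by its nearest gene, with Actg1 guide libraries as circles above GFP guide libraries as squares. No region in either panel has overlapping groups, and the falls reach 89 to 188 in the Actg1 guide libraries. Picking by size among called regions favours such separation.

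The other 3 start-site regions whose upstream sequences were picked for their change were those of Clip4, Gm35551 and Synj2. The Clip4 region (chr17:71780580-71781411) had 250, 250 and 224 in the Actg1 guide libraries and 402, 424 and 405 in the GFP guide libraries (log2 fold change -0.76, limma adjusted p = 2.35e-10). The Gm35551 region (chr17:84044323-84045006) had 375, 396 and 442 with the Actg1 guide and 618, 677 and 699 with the GFP guide (log2 fold change -0.74, limma adjusted p = 6.63e-12). The Synj2 region (chr17:5975179-5975977) had 553, 552 and 571 with the Actg1 guide and 443, 434 and 421 with the GFP guide (log2 fold change 0.38, limma adjusted p = 3.11e-06). These 3 regions had groups without overlap, which picking by the size of the change favours.

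Most nearest genes had a single strong distal region. The 1936 regions had 1583 nearest genes, of which 1312 had 1 region, 217 had 2, 54 had 3 or more and 8 had at least 5. Counts per gene are to be read beside 55.9% called over all 1936 regions and 41.3% over all tested regions. With so few regions per gene, no difference from these shares is read. Gse1 had 6 regions within its gene body, of which 5 were called lower and 1 higher. The Gse1 counts held without each Actg1 guide replicate and without GFP guide replicate 1 or 2. Its largest fall (chr8:120416676-120417326) had 186, 197 and 167 in the Actg1 guide libraries and 275, 324 and 309 in the GFP guide libraries (log2 fold change -0.73), and the region at chr8:120563542-120564787 had 666, 654 and 695 with the Actg1 guide and 565, 531 and 565 with the GFP guide (log2 fold change 0.27). Eml1, which encodes a microtubule-binding protein, also had 6, of which 4 were lower. Without Actg1 guide replicate 2, 1 was called lower. The median log2 fold change of the Eml1 regions was -0.20, and -0.17 without GFP guide replicate 3.

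Ltbp1 had 5 regions in its body besides the large rise beyond it. One of these 5 was called, at chr17:75250657-75251536, with 433, 488 and 392 in the Actg1 guide libraries and 380, 380 and 354 in the GFP guide libraries (log2 fold change 0.25, limma adjusted p = 0.0063). Without GFP guide replicate 3 its log2 fold change was 0.20, and that of the large rise was 0.97. Without Actg1 guide replicate 1 or 2, 1 of the 6 was called. The region with most signal in Ltbp1 (chr17:75110356-75111383) had 1161, 1163 and 1123 with the Actg1 guide and 1160, 1188 and 1179 with the GFP guide, with overlapping groups. Plec, the gene of the cytolinker plectin, had 5 regions, with 1 higher and 2 lower (median log2 fold change -0.15, and -0.13 without GFP guide replicate 3). Kirrel3, an adhesion receptor gene, had 5, with 0 higher and 3 lower (median -0.20, and -0.11 without that replicate). Sh3pxd2a, which encodes the podosome scaffold Tks5, had 5, with 2 higher and 1 lower (median -0.04, and 0.05 without it). Of all 1936 regions 55.9% were called, and of all tested regions 41.3%, so nothing particular to a gene is read from these counts.

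Neighbouring regions were called alike more often than opposite, but not always. In 148 pairs of neighbouring strong regions with centres within 10 kb, 8 were both higher, 36 both lower and 11 of opposite direction. Taken singly, 14.5% of the 1936 regions were called higher and 41.4% lower. Over all tested regions the shares were 20.6% and 20.7%, and the windows below are to be read beside the same shares. Across pairs the log2 fold changes had a Pearson correlation of 0.47 and a Spearman correlation of 0.40. These are given as a description, since neighbours share libraries and reads. The 100 kb window with most strong regions lay near Cd9, the gene of a tetraspanin, and Gm32673 (chr6:125413222-125469121). Its 6 regions summed to 2699, 2710 and 2829 in the Actg1 guide libraries and 2822, 2740 and 2948 in the GFP guide libraries, and 3 were called lower. Of these the one in Cd9 had 254, 227 and 256 with the Actg1 guide and 312, 341 and 316 with the GFP guide (log2 fold change -0.39, limma adjusted p = 0.000184). The other 2 had log2 fold changes of -0.24 and -0.18, and both had -0.12 without GFP guide replicate 3. Both of these calls were lost without Actg1 guide replicate 1 or 2.

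The second window lay between the lncRNA genes Gm35551 and Gm19696, on the side of Zfp36l2, which encodes a protein that destabilises mRNAs (chr17:84070581-84149417). Of its 6 regions 1 was higher and 3 lower, and 2 of these 4, next to each other among the strong regions, moved opposite ways. Of the 3 lower calls, the one at chr17:84110051-84110615 (log2 fold change -0.20, limma adjusted p = 0.0331) was lost without Actg1 guide replicate 1 or 3 and after cyclic loess scaling (limma adjusted p = 0.0569). Its log2 fold change was -0.15 without GFP guide replicate 3. The region at chr17:84112135-84112825 had 328, 366 and 357 in the Actg1 guide libraries and 451, 473 and 482 in the GFP guide libraries (log2 fold change -0.43, limma adjusted p = 3.2e-06). Its neighbour at chr17:84116024-84116555 had 434, 418 and 422 with the Actg1 guide and 322, 311 and 338 with the GFP guide (log2 fold change 0.38, limma adjusted p = 2.7e-05). Neither pair of groups overlapped.

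The third window held 5 regions in Dlgap1 (chr17:70719715-70797832), which summed to 4115, 4162 and 4237 in the Actg1 guide libraries and 3929, 3921 and 4179 in the GFP guide libraries. The last of them, chr17:70796868-70797832, had 947, 932 and 969 with the Actg1 guide and 753, 778 and 803 with the GFP guide and was called higher (log2 fold change 0.28, limma adjusted p = 1.13e-05). The first was called lower (log2 fold change -0.17, limma adjusted p = 0.0128) and lost that call without Actg1 guide replicate 1 (limma adjusted p = 0.074). Its log2 fold change was -0.19 without GFP guide replicate 3.

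**Figure D5:**
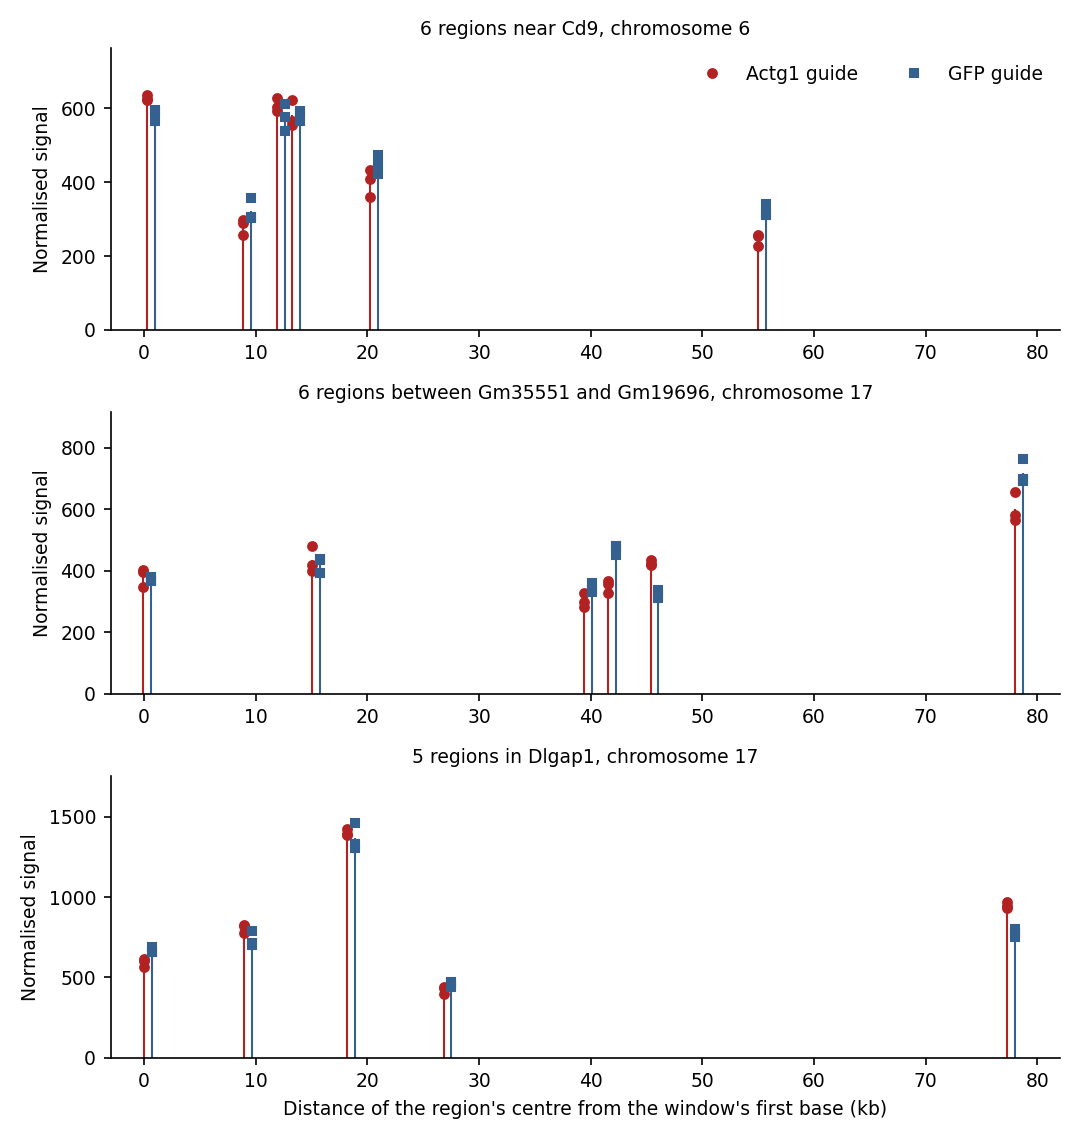
Signal of the strong distal regions (vertical axes) in the 3 windows of 100 kb that hold most of them, by distance from the first base of the window (horizontal axes, kb). Points are libraries and lines reach to the mean, with the Actg1 guide drawn just left of the GFP guide. In the panel of the second window, the regions with GFP guide signals of 451 to 482 and 311 to 338 differ in opposite directions.

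Regions were then grouped by lists of nearest genes. Each list below is to be read beside shares of 14.5% called higher and 41.4% called lower over all 1936 regions. Over all tested regions the shares were 20.6% and 20.7%. Of 57 genes of the actin cytoskeleton, 14 had a strong distal region nearest to them, 20 in all, of which 4 rose and 9 fell (65.0% called, where 41.3% of all regions were, median log2 fold change -0.15). Without GFP guide replicate 3, which leaves 1 GFP guide sample, the median was -0.10. Lpp, a LIM protein gene of focal adhesions, had 4. One, chr16:24434188-24435513, had 738, 772 and 717 in the Actg1 guide libraries and 540, 524 and 594 in the GFP guide libraries (log2 fold change 0.40, limma adjusted p = 2.71e-07). Another, chr16:24490652-24491696, had 431, 468 and 464 with the Actg1 guide and 518, 557 and 586 with the GFP guide (log2 fold change -0.31, limma adjusted p = 0.000149). Its log2 fold change was -0.24 without GFP guide replicate 3. A region 13.0 kb from Actb, the gene of beta-actin (chr5:142920709-142921302), had 549, 581 and 640 with the Actg1 guide and 636, 636 and 706 with the GFP guide. The groups overlapped there, and its call (log2 fold change -0.19, limma adjusted p = 0.013) was lost without Actg1 guide replicate 1 or 2. Its log2 fold change was -0.11 without GFP guide replicate 3. Mrtfa and Mrtfb, coactivators of the serum response factor that are controlled by actin, had 1 region each. Mrtfa had 219, 237 and 246 with the Actg1 guide and 328, 347 and 287 with the GFP guide and was called lower. Mrtfb had 386, 352 and 382 with the Actg1 guide and 288, 325 and 318 with the GFP guide and was called higher.

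Of 32 genes in the list of YAP/TEAD targets and pathway members, 9 had 11 regions, 2 higher and 7 lower. Their median log2 fold change was -0.18, and -0.17 without GFP guide replicate 3. Tead3, a gene of the DNA-binding partners of YAP, held a region with 1270, 1187 and 1296 in the Actg1 guide libraries and 1018, 981 and 989 in the GFP guide libraries (chr17:28340385-28341577, log2 fold change 0.33, limma adjusted p = 8.24e-08). Tead4, of the same family, held one with 469, 456 and 504 with the Actg1 guide and 539, 534 and 565 with the GFP guide (chr6:128282160-128282654, log2 fold change -0.21, limma adjusted p = 0.00643). Its log2 fold change was -0.17 without GFP guide replicate 3. The differences at Tead3 and Tead4 had opposite signs. Dock5, which encodes a Rac exchange factor, had 174, 170 and 190 with the Actg1 guide and 307, 315 and 299 with the GFP guide. Of the 15 AP-1 genes, Fos alone had a strong distal region, with 552, 507 and 500 with the Actg1 guide and 526, 559 and 590 with the GFP guide, which was not called.

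Transcription factors of fibroblasts and mesenchyme had 20 regions at 16 of 50 genes, 4 higher and 11 lower. Their median log2 fold change was -0.19, and -0.16 without GFP guide replicate 3. Runx1 had 2, both called lower, of which 1 had a log2 fold change of -0.19, and -0.13 without GFP guide replicate 3. The other, chr16:92653892-92654998, had 178, 204 and 192 in the Actg1 guide libraries and 377, 389 and 364 in the GFP guide libraries. Ets1 had 2 that differed: the fall given above, and chr9:32695340-32696341 with 1014, 907 and 1011 with the Actg1 guide and 964, 945 and 976 with the GFP guide, whose groups overlapped. Nfix, a gene of the nuclear factor I family, held a region of 2233 bp with 593, 606 and 623 with the Actg1 guide and 777, 749 and 843 with the GFP guide (chr8:84742186-84744418, log2 fold change -0.40, limma adjusted p = 1.56e-07). Hmga2 had 820, 890 and 772 with the Actg1 guide and 716, 732 and 765 with the GFP guide (log2 fold change 0.15, limma adjusted p = 0.0235), a call lost without Actg1 guide replicate 1 or 2. Its log2 fold change was 0.19 without GFP guide replicate 3.

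Matrix genes had 13 regions at 10 of 43 genes, 2 higher and 5 lower (median -0.11, and -0.08 without GFP guide replicate 3). Col4a2, the gene of a basement membrane collagen chain, held one with 743, 764 and 766 in the Actg1 guide libraries and 547, 578 and 592 in the GFP guide libraries (chr8:11392548-11393966, log2 fold change 0.39, limma adjusted p = 1.35e-07). TGF-beta and BMP genes had 12 regions at 6 of 30 genes, 3 higher and 3 lower. Their median log2 fold change was -0.02, with -0.03 without that replicate and 0.01 after cyclic loess scaling. Tgfbr2, the type II TGF-beta receptor gene, held a region with 406, 375 and 445 with the Actg1 guide and 561, 567 and 570 with the GFP guide (chr9:116152746-116153415, log2 fold change -0.47, limma adjusted p = 2.56e-07).

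Growth control and survival genes had 16 regions at 13 of 28 genes, 3 higher and 5 lower. Their median log2 fold change was -0.05, and 0.02 without GFP guide replicate 3. Fgfr1, a fibroblast growth factor receptor gene, held a region with 312, 304 and 309 in the Actg1 guide libraries and 455, 473 and 477 in the GFP guide libraries (chr8:25536602-25537848, log2 fold change -0.61, limma adjusted p = 3.05e-09). Hbegf, the gene of a ligand of the EGF receptor, had 404, 445 and 392 with the Actg1 guide and 314, 295 and 309 with the GFP guide, and Ccnd1, the cyclin D1 gene, had 247, 268 and 287 with the Actg1 guide and 340, 377 and 393 with the GFP guide. The first was called higher and the second lower. These lists were chosen with earlier results known, and nothing particular to a list is read from its counts.

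Near the targeted gene and its smooth muscle paralogue Actg2, limma called 0 of 7 strong distal regions, with 1 at an unadjusted p under 0.05, and voom called 0. Limma called 41.3% of all tested regions and 55.9% of the 1936. With 7 regions, no difference from these shares is read from the count. Within 1 Mb of Actg1 lay 4, in Baiap2, in Bahcc1 (2 regions) and in Aspscr1. The nearest, 83.5 kb away in Bahcc1 (chr11:120261519-120262858), had 466, 472 and 474 in the Actg1 guide libraries and 485, 468 and 480 in the GFP guide libraries, with overlapping groups (log2 fold change -0.02, limma adjusted p = 0.8). Within 1 Mb of Actg2 lay 3, at Pole4, Hk2 and Gm10445. The one over a start site of Pole4, a DNA polymerase epsilon subunit gene (chr6:82652471-82653244), had 610, 618 and 597 with the Actg1 guide and 584, 600 and 631 with the GFP guide. The region in Baiap2 had 316, 291 and 357 with the Actg1 guide and 374, 331 and 364 with the GFP guide, with overlapping groups, and was not called (limma adjusted p = 0.0972), although it passed without Actg1 guide replicate 3 (limma adjusted p = 0.0243) or GFP guide replicate 2 (limma adjusted p = 0.0389).

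The distal regions were also set beside the promoter of their nearest gene. For 799 strong distal regions, the nearest of 633 genes had an assigned promoter region that was tested. Across these pairs, which share libraries and are not independent, the log2 fold changes had a Pearson correlation of 0.10 and a Spearman correlation of 0.15. Over all 799 pairs the promoter was called higher in 11.1% and lower in 22.9%. Of 104 higher distal regions, 13 (12.5%) had a promoter called higher and 13 one called lower. Of 343 lower distal regions, 23 (6.71%) had a promoter called higher and 97 (28.3%) one called lower. Whether these shares differ was not tested.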

How the data were processed

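ATAC-seq of 6 mouse NIH/3T3 libraries was analysed, 3 with the Actg1 guide and 3 with the GFP guide. Per the submitters' processing notes the build was mm10 and the tools included DESeq2 1.36.0, DESeq, featureCounts, Picard 3.0.0, STAR 2.7.10a and Trimmomatic 0.39, whose roles are not stated. Not given in the sources used here are the peak caller, any Tn5 offset and how the scaling was done. What the authors deposited is 1 table of 63430 regions whose signal values are read counts scaled between libraries and rounded. This reading rests on the values, and from their uneven use of small whole numbers the signal per read was estimated at 0.807 to 1.35, which gave the estimated reads.

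From there, log2(signal + 1) was fitted with limma 3.58.1 in R 4.3.3 with a mean-variance trend, for the 61327 regions that reached a signal of 10 in 3 or more of the 6 libraries. Fold changes on that scale put the Actg1 guide over the GFP guide. Benjamini-Hochberg adjustment ran over all tested regions, and calls needed an adjusted p under 0.05. GFP guide replicates 1 and 2 were averaged. The fit was tested on simulated data. Regions were placed with RefSeq genes and start sites of GRCm38.p6, whose coordinates are those of mm10, and the nearest gene is by distance from the region's centre to a gene body. Regions named are the 10 highest, the 10 largest rises and falls among called ones, the 5 farthest from genes, widest and densest, those at the threshold, in the 3 fullest windows of 100 kb or within 1 Mb of Actg1 or Actg2, and up to 4 per gene list; others were chosen after their values were seen. The members and lists were chosen with earlier results of these data known. A gene description column of the table was not used, since its entries were out of step with their rows.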

Additional observations from a re-analysis of the deposited data

How the results depend on the processing

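The counts of strong distal regions called kept within 1.5 times of 1082, and their median log2 fold change kept its sign, under other pseudocounts, no filter on low values, 6 separate libraries, other scalings, a level of 250 and the removal of regions near gene ends or start sites. Leaving out each replicate gave 624 to 1059 calls (164 to 277 higher, 460 to 802 lower) and medians of -0.12 to -0.10; all regions gave 12969 to 23925 calls, gene-assigned regions of like signal 748 to 2064 and weaker distal regions 8983 to 15494, each lowest without GFP guide replicate 3. That fit has 1 GFP guide sample, so fewer calls follow from its construction. At a level of at least 400, 529 were called (131 higher and 398 lower). That set holds fewer regions, and 57.4% of it were called, against 55.9% of the 1936. The level of 250 and the removals also change the number of regions, so their counts are not shares of the 1936. Choosing by the Actg1 guide mean gave 517 higher and 444 lower with a median of -0.0036, and by the mean over all 6 libraries the median was -0.0637. It was -0.0837 after cyclic loess, -0.12 with equal medians, -0.14 by signal per kb and -0.0861 by voom on estimated reads, an alternative added after the data were seen, as was leaving out regions within 1 kb of a start site.

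Whether the replicate numbers pair the libraries could not be told from the values. Deviations from the group mean correlated at 0.014 to 0.025 between same-numbered libraries of the 2 guides. Between differently numbered ones they correlated at -0.0165 to -0.00034. Replicates differed little beyond counting error, so even paired libraries could give correlations near these. With the replicate number as a block, 1187 strong distal regions were called (324 higher and 863 lower) and 28725 of all regions, with a median of -0.11.

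Among 93 named regions, 52 were called and none of these 52 turned sign under any of these settings. Of the 52, 16 lost the call under at least 1 setting, all 16 without GFP guide replicate 3. The fit without that replicate has 1 GFP guide sample, so a call lost there does not tell a smaller change from lower power. Direction was not stable for 14 uncalled regions, where the cause was not tested. After cyclic loess the log2 fold change was 0.015 at Gm20783, 0.028 at Ptprs, 0.0102 at Ltbp1 (chr17:75110356-75111383), 0.024 at Gm32673 (chr6:125426458-125427192), 0.0077 at Bahcc1 (chr11:120261519-120262858), 0.028 at Pole4, 0.0056 at Timp2 and 0.014 at Lmna (chr3:88492426-88493324). By voom it was 0.015 at Gm20783, 0.0091 at Gm32673, 0.033 at Pole4, 0.0075 at Timp2 and 0.013 at this Lmna region. With equal medians it was -0.0029 at Nr3c1 and -0.0018 at Lmna (chr3:88502995-88504060). Pole4 was at 0.0085 with 6 separate libraries and with the block. Leaving out 1 library gave ranges that spanned 0 at Nr3c1 at chr18:39488931-39491930 (-0.0214 to 0.0229), Gm32673 at chr6:125426458-125427192 (-0.0622 to 0.0235), Gm35551 at chr17:84070581-84071040 (-0.00226 to 0.105), 4933433H22Rik at chr17:84085699-84086215 (-0.0582 to 0.076), Bahcc1 at chr11:120256225-120257349 (-0.0237 to 0.0805), Pole4 at chr6:82652471-82653244 (-0.0183 to 0.0391), Timp2 at chr11:118327070-118327955 (-0.0489 to 0.0128), Ets1 at chr9:32695340-32696341 (-0.0114 to 0.069), Lmna at chr3:88492426-88493324 (-0.0416 to 0.0103) and Lmna at chr3:88502995-88504060 (-0.0473 to 0.0496). Counting error at the estimated depths limits what can be read near the level of 300.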
